A study of Mus musculus with 12 samples.

Results

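The response to an MPS1 inhibitor was measured across all expressed genes in 6 libraries of MAVS-reconstituted tumours, 3 from mice given a control treatment and 3 from mice given the inhibitor. They were chosen by their group labels and are 6 of the 12 libraries of the series. The other 6 come from MAVS-knockout tumours under the same pair of treatments and serve here as the comparison. The tumours were made by placing 393P cells, a line of murine lung cancer, subcutaneously in the flank of 8-week-old male 129S2/SvPasCrl mice. Both genotypes therefore rest on cells whose Mavs gene was disrupted, with MAVS put back in one of them, and the host cells of a tumour keep their own Mavs. The inhibitor was BAY-1217389 at 5 mg/kg, 2 times a day for 2 days, with the tumours taken on the following day, and the control vehicle was a mixture of PEG 400, ethanol and water. The stated aim was to find expression changes after such pulsed treatment that depend on MAVS. Messenger RNA of the tumours was sequenced, so tumour cells and host cells were read together, and fewer cells of a type and less RNA per cell cannot be told apart.

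MPS1, the product of Ttk, is a kinase of the spindle assembly checkpoint, which holds a dividing cell in metaphase until its chromosomes are attached. Cells that divide without it distribute chromosomes unevenly, and some end up with micronuclei and with nucleic acids in the cytosol. MAVS sits on mitochondria and relays signals from the cytosolic RNA sensors RIG-I (Ddx58) and MDA5 (Ifih1) towards interferon and inflammatory genes. Interferons in turn induce antiviral genes, chemokines that attract lymphocytes, and the MHC class I machinery that shows peptides to CD8 T cells.

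The 6 libraries held 55026669 to 69108411 counts each, and 3 counts, the limit used here for a value of 0, corresponded to 0.0434 to 0.0545 CPM (the usual depth-scaled count, here with TMM factors). Replicates were not equally alike. Inhibitor replicates 1 and 3 differed by more than 2-fold in 2742 of 17885 genes (15.3%), replicates 1 and 2 in 2233 (12.5%) and replicates 2 and 3 in 1574 (8.8%). Pairs of control libraries differed by that much in 1333 to 1408 genes. Tumour cell keratins were abundant in every library, with Krt8 at 2100 to 2970 CPM and Krt18 at 1630 to 3260 CPM. Of 15 markers of epithelial tumour cells, the claudin gene Cldn7 had 0 counts in all libraries, and Esrp1, Rab25 and Ovol1 were too low to test. Mitochondrial mRNA took 3.66 to 4.44% of counts in controls and 2.29 to 3.38% under the inhibitor, and its part in the results was not tested. The labels name replicates without saying that each came from a separate mouse, so a p-value here reflects variation among these libraries, which may be technical.

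Mavs (gene ID 228607, lying on GRCm38.p6 chromosome 2 from 131234063 to 131248025) stood at 85.1, 68.9 and 59.1 CPM in control replicates 1, 2 and 3 and at 50.1, 53.8 and 62.8 CPM in inhibitor replicates 1, 2 and 3. The groups overlapped through control replicate 3 and inhibitor replicate 3, and the log2 difference of -0.35 ± 0.13 (SE) did not pass (edgeR adjusted p = 0.093). All 6 values lay above those of the knockout libraries (39.4 to 45.7 CPM), in the direction that the labels give. Ttk, the gene of the drug target (gene ID 22137, chromosome 9, 83834651 to 83872390), was read at 22.5, 20.4 and 16.8 CPM in controls and at 15.2, 18.6 and 18.8 CPM under the inhibitor. Its log2 difference of -0.18 ± 0.13 (SE) did not pass either (edgeR adjusted p = 0.353).

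No gene passed the test of the inhibitor against the control in reconstituted tumours. The smallest adjusted p was 0.0729 and was shared by 1288 genes (edgeR quasi-likelihood test, Benjamini-Hochberg over 17885 genes, 0% called). At an unadjusted p below 0.05 there were 5827 genes (32.6%), 3140 higher (17.6%) and 2687 lower (15%). DESeq2 called 3621 genes, 2092 higher (11.7%) and 1529 lower (8.55%). The count changed most with inhibitor replicate 3: without it edgeR called 5683 genes, 2894 higher (15.8%) and 2789 lower (15.2%). Without inhibitor replicate 1, 3257 genes (17.7%) had an unadjusted p below 0.05 (edgeR smallest adjusted p = 0.261). Replicate 1 was more than 2-fold above the control mean in 1791 genes and below it in 1729. For replicate 2 these were 830 and 596 genes, and for replicate 3 555 and 677. Leaving out inhibitor replicate 2 gave 3 calls, control replicate 3 gave 2 and knockout control replicate 3 gave 1, among 18360 genes tested in that last fit. Knockout libraries enter this contrast only through the gene filter, the scaling and the estimate of the spread. Apart from inhibitor replicate 3, each other single library gave 0. All 3 inhibitor libraries lay above all 3 controls for 2635 genes (14.7%) and below them for 2650 (14.8%). The 3 inhibitor libraries were each more than 2-fold above the control mean for 160 genes (0.895%) and more than 2-fold below it for 83 (0.464%).

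In knockout tumours the same contrast also gave 0 calls (edgeR smallest adjusted p = 1), 305 genes at an unadjusted p below 0.05 (1.71%), and 3 calls by DESeq2. The knockout libraries lay apart for 804 genes above (4.5%) and 761 below (4.25%). The difference between the inhibitor effects in the 2 genotypes was tested as an interaction. It called 0 genes (edgeR smallest adjusted p = 0.144, shared by 1553 genes), with 4421 at an unadjusted p below 0.05 and 1345 called by DESeq2. Without reconstituted inhibitor replicate 3 the interaction called 4005 genes, and without reconstituted control replicate 3 it called 1. What follows gives the values of single libraries, and no difference named below passed the edgeR test with all 12 libraries unless this is said.

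**Figure D1:**
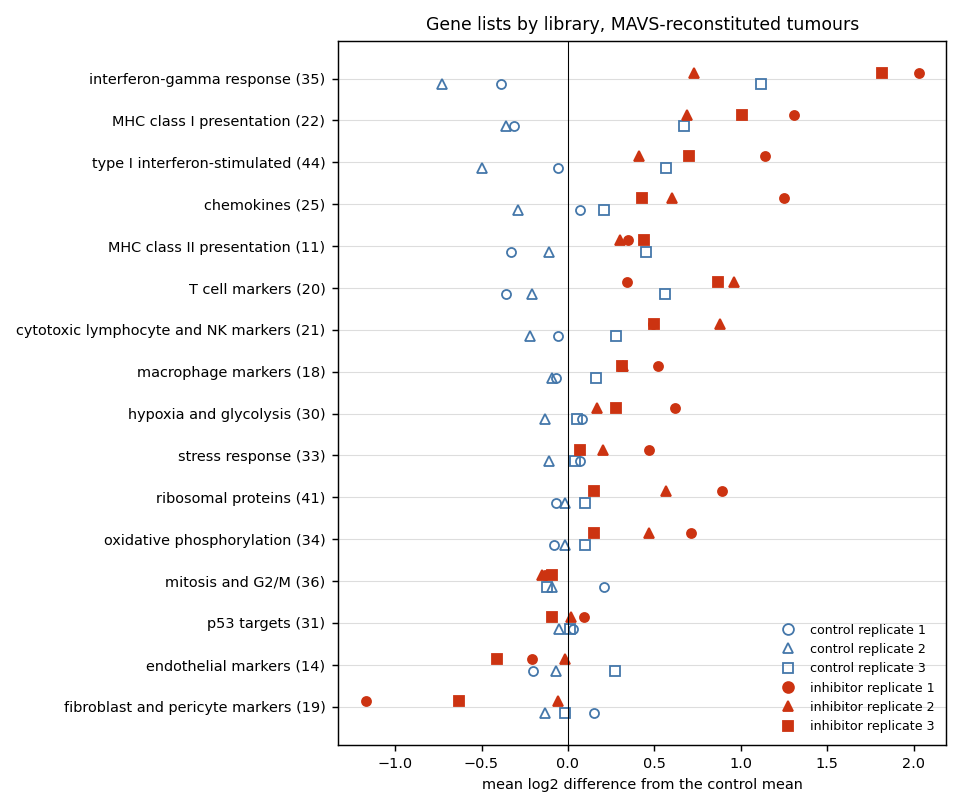
Mean log2 difference of 16 gene lists from the mean of the control libraries (x axis), with the number of tested members in brackets, for each of the 6 reconstituted libraries (open: control, filled: inhibitor, marker shape: replicate number). Interferon and MHC class I lists lie to the right under the inhibitor. Control replicate 3 is above inhibitor replicate 2 for the interferon-gamma response (1.12 against 0.73) and close to it for MHC class I (0.67 against 0.69). Fibroblast markers are lowest in inhibitor replicate 1 at -1.17.

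Of the immune lists, MHC class I presentation had the largest share of members whose groups did not overlap. All 22 tested members had a positive log2 difference, with a median of 1.01 against -0.005 over all genes tested and -0.01 for the same list in knockout tumours. Inhibitor libraries lay above all controls for 16 of 22 members (72.7%), where 14.7% of all genes did so. With a term for transcript length, described below, 3 of 22 did so, near the 11.6% of all genes, and the median was 0.79. Against the control mean, the list averaged -0.31, -0.36 and 0.67 log2 units in control replicates 1, 2 and 3 and 1.31, 0.69 and 1.01 in inhibitor replicates 1, 2 and 3. Control replicate 3 thus stood next to inhibitor replicate 2. Without control replicate 3 all 22 members lay above the controls (23.6% of all genes lay above and 22.7% below), and without inhibitor replicate 3 there were again 16 (27.5% of all genes).

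Among the class I chains, B2m, the light chain of every class I molecule (gene ID 12010, chromosome 2, 122147687 to 122153082), was read at 1090, 1110 and 1840 CPM in controls and at 3840, 2030 and 2630 CPM under the inhibitor. Even the lowest inhibitor library was above the highest control, and the log2 difference was 1.08 ± 0.34 (SE, edgeR adjusted p = 0.0765). The classical heavy chain gene H2-K1 had 523, 513 and 999 CPM against 1600, 1150 and 1350 CPM, a log2 difference of 1.01 ± 0.34 (SE, edgeR adjusted p = 0.083). H2-T23, a nonclassical chain that presents leader peptides to NK receptors, was at 153, 120 and 310 CPM in controls and at 696, 343 and 398 CPM under the inhibitor. Again replicate 1 was the highest of the inhibitor libraries and control replicate 3 the highest of the controls. In peptide supply, the immunoproteasome subunit gene Psmb10 had 73.4, 59.8 and 171 CPM against 431, 197 and 233 CPM, and the peptide transporter gene Tap2 had 82.1, 73.3 and 195 CPM against 408, 206 and 258 CPM. Both separated the groups. Tap1, the partner of Tap2, overlapped through control replicate 3 (73.3, 66.1 and 220 CPM against 404, 198 and 301 CPM). So did Nlrc5, the transactivator of class I genes, with 13.2, 13 and 35.2 CPM against 33.4, 24.9 and 44.3 CPM. The class I heavy chain genes are near-identical to each other, so the split of reads between them is uncertain.

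Among the pathway lists the interferon-gamma response had the largest median, 1.45 against 0.08 in knockout tumours, with 34 of 35 members positive. Only 8 of the 35 (22.9%) lay above all controls, against 14.7% of all genes. With a term for transcript length 5 of 34 did so, against 11.6% of all genes. Library means were -0.39, -0.73 and 1.12 in the controls and 2.03, 0.73 and 1.82 under the inhibitor. Control replicate 3 was above inhibitor replicate 2. Leaving out control replicate 3 gave 34 of 35 members apart (23.6% of all genes) at a median of 2.3, and leaving out inhibitor replicate 2 gave 33 (19.1% of all genes).

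Ifng itself, made by T and NK cells (gene ID 15978, chromosome 10, 118441046 to 118445894), was rare: 0.502, 0.225 and 2.44 CPM in controls and 10.4, 3.26 and 4.61 CPM under the inhibitor. The groups did not overlap, and the log2 difference was 2.53 ± 0.78 (SE, edgeR adjusted p = 0.0755). Socs1, the feedback inhibitor of interferon receptor kinases (gene ID 12703, chromosome 16, 10783808 to 10785536), had 11.9, 13.4 and 40.7 CPM against 158, 49 and 83.6 CPM, a log2 difference of 2.14 ± 0.56 (SE, edgeR adjusted p = 0.0729). Acod1, which makes itaconate in activated macrophages, had 1.97, 1.34 and 6.47 CPM against 21.5, 6.96 and 19.8 CPM. For Acod1 control replicate 3 and inhibitor replicate 2 were nearly equal, while inhibitor replicates 1 and 3 stood higher. Nos2, the inducible nitric oxide synthase, had 31.2, 30.1 and 61.3 CPM against 176, 61.7 and 182 CPM. Ido1, which degrades tryptophan, had 1.07, 0.76 and 5.16 CPM against 16.9, 7.21 and 15 CPM. The transcription factor gene Irf1 overlapped, at 215, 175 and 518 CPM against 1110, 422 and 774 CPM. Chemokine genes of the list overlapped too: Cxcl9 had 99.8, 60.6 and 282 CPM against 602, 189 and 487 CPM, and Cxcl10 had 50.4, 34 and 153 CPM against 520, 119 and 266 CPM. All 17 interferon-inducible GTPase genes of the list (Gbp, Irg and Tgtp genes) overlapped, at a median log2 difference of 1.42. Ciita, the class II transactivator gene, was the 1 member with a negative difference (-0.02), at 84.1, 93.4 and 153 CPM against 86.7, 86.7 and 152 CPM. Gbp and Tgtp genes have close paralogs, so their separate values are uncertain.

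Promoters were searched for 12 genes, the 6 of smallest p in each of these 2 lists among members whose groups did not overlap, and 4 of those with a match are shown because factors activated by interferons bind 2 short motifs. One is the core of the interferon-stimulated response element (GAAA, any 2 bases, GAAA), and the other is the gamma-activated site TTCNNNGAA. Both were searched on both strands in RefSeq windows (GRCm38.p6) from 250 bases before to 50 bases after each start. The capitals mark the matches. H2-T23 (chr17:36032786-36032855, minus strand, where the capitals are the element on the opposite strand, 114 bases before the start), B2m (chr2:122147518-122147587, plus strand, 129 bases before the start) and Socs1 (chr16:10785574-10785649, minus strand, 2 overlapping matches, 67 bases before the start) held the first motif, and Irf8 (chr8:120736157-120736243, plus strand, 144 bases before the start) held the second 2 times.
H2-T23: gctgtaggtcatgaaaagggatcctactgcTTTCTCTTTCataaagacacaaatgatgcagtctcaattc
B2m: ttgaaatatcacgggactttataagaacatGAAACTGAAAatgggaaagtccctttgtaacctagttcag
Socs1: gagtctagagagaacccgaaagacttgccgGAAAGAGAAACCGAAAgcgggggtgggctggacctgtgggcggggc
Irf8: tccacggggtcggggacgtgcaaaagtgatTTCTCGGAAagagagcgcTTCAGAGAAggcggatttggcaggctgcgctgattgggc

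The response element core was found for 12 of the 21 interferon-gamma response genes with a window (57.1%), for 19 of 33 type I interferon-stimulated genes (57.6%) and for 5 of 19 MHC class I genes (26.3%). Of the 12756 tested genes with a window, 492 had it (3.86%). TTCNNNGAA was found for 10 of 21, 7 of 33 and 2 of 19 genes of these lists, against 1094 of 12756 (8.58%). Lists not tied to interferon were searched too. Ribosomal protein genes had the response element core for 5 of 31 (16.1%) and TTCNNNGAA for 3 of 31 (9.68%). Hypoxia and glycolysis genes had the core for 1 of 27 (3.7%) and TTCNNNGAA for 2 of 27 (7.41%). Of the 12 genes, Psme1 also held the first motif, Tap2, Nos2 and Ido1 had no window in the table, and Psmb10, Psme2, Acod1 and Psmb9 had neither motif in these windows. Irf8, a transcription factor of macrophages and dendritic cells, was read at 39.4, 31 and 51 CPM in controls and at 76.9, 52 and 61.3 CPM under the inhibitor. A match is a description of letters and does not show binding.

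Type I interferon-stimulated genes had a smaller median than the interferon-gamma list. Of 44 tested, 41 had a positive log2 difference, at a median of 0.66 (knockout tumours -0.02). All controls lay below the inhibitor libraries for 11 of them (25%), against 14.7% of all genes. With a term for transcript length this held for 3 of 43, against 11.6% of all genes. Library means were -0.06, -0.5 and 0.57 in controls and 1.14, 0.41 and 0.7 under the inhibitor, so control replicate 3 was above inhibitor replicate 2. Without control replicate 3, 38 of 44 lay apart (23.6% of all genes) at a median of 1.02, and without inhibitor replicate 2 or 3 there were 30 (19.1%) and 17 (27.5%). Ifitm3, which blocks virus entry at membranes, had 168, 145 and 226 CPM against 599, 305 and 295 CPM (log2 difference 1.15 ± 0.31 SE, edgeR adjusted p = 0.0729). Bst2, which tethers budding viruses, had 126, 101 and 228 CPM against 638, 277 and 261 CPM. Zbp1, a sensor of Z-form nucleic acids, had 30.2, 28.9 and 95.5 CPM against 207, 96 and 177 CPM, so that control replicate 3 and inhibitor replicate 2 were nearly equal. Isg15, the ubiquitin-like modifier, had 38.2, 23.3 and 63.9 CPM against 149, 76.9 and 65.8 CPM, and Ifit3 had 57.1, 34.1 and 105 CPM against 249, 105 and 111 CPM. Replicate 1 was the highest library for both, and their log2 differences of 1.22 and 1.25 were 0.77 and 0.72 without it. Ifit1 overlapped (41.5, 26.4 and 70.3 CPM against 95.2, 56.6 and 56.5 CPM), and Rsad2 stood at 12.9, 7.99 and 13.7 CPM against 19.6, 15.6 and 16.3 CPM. Ifit and Oas genes have near-identical neighbours, so their separate values are uncertain.

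The sensors that act ahead of MAVS gave near-equal values. Ddx58 had 88.8, 67.7 and 106 CPM against 99, 73.1 and 105 CPM, and Ifih1 had 21.8, 15.6 and 28.2 CPM against 21.1, 18.1 and 26.8 CPM. Their log2 differences, 0.08 ± 0.19 and 0.01 ± 0.24 (SE), were smaller than their errors and turned negative without control replicate 2 (-0.07 and -0.18) and without inhibitor replicate 3 (-0.03 and -0.16). Tmem173, the DNA sensing adaptor STING, had 43.5, 49.3 and 68.2 CPM against 93, 64.6 and 87.1 CPM, and overlapped. Ifnb1, the interferon gene that MAVS signalling induces, was too low to test: it had 0 counts in the 3 controls and 0, 2 and 0 counts in inhibitor replicates 1, 2 and 3, all below the limit of 3 counts.

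Chemokine genes of the CC and CX3C type had 13 of 14 tested members positive and 7 above all controls, at a median of 1.12 (knockout tumours -0.42), where 14.7% of all genes lay above. Ccl5, which draws T and NK cells, had 7.05, 3.83 and 7.05 CPM against 27.4, 15 and 13.6 CPM, a log2 difference of 1.64 ± 0.45 (SE, edgeR adjusted p = 0.0729). Ccl4, a macrophage and T cell chemokine, had 1.18, 0.985 and 2.17 CPM against 5.63, 3.9 and 3.98 CPM. Here inhibitor replicates 2 and 3 agreed, and each was above every control. Ccl2, which draws monocytes, had 84.6, 93.7 and 149 CPM against 305, 187 and 210 CPM. Of the CXC genes, 8 of 11 were positive and 1 lay above all controls, at a median of 0.45. Both types together had 8 of 25 (32%) above all controls, and 14 without control replicate 3 (23.6% of all genes) or without inhibitor replicate 2 (19.1%). Their joint median of 0.77 was 0.48 without inhibitor replicate 1.

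T cell markers were low in all libraries, with a summed level of 52.1 to 90.7 CPM in controls and 57.5 to 104 CPM under the inhibitor. Of 20 tested, 19 had a positive log2 difference (median 0.72, knockout tumours 0.16) and 6 (30%) lay above all controls, against 14.7% of all genes. With a term for transcript length 2 of 17 did so, near the 11.6% of all genes. Inhibitor replicate 1, the highest for interferon genes, was the lowest of its group here, at a list mean of 0.34 against 0.96 and 0.87. Without it 14 of 20 lay above the controls (17.4% of all genes), and without control replicate 3 there were also 14 (23.6%), at a median of 1.14. Cd3d, part of the T cell receptor complex, had 1.51, 0.971 and 1.41 CPM against 2.51, 3.73 and 2.89 CPM (log2 difference 1.23 ± 0.25 SE, edgeR adjusted p = 0.0729). Trbc2, a receptor beta constant gene, had 1.23, 1.65 and 2.36 CPM against 3.77, 4.17 and 3.55 CPM. Inhibitor replicate 2 was the highest library for both genes. Cd8a, the coreceptor of cytotoxic T cells, had 0.173, 0.211 and 0.964 CPM against 2.37, 1.07 and 1.04 CPM, and its knockout log2 difference of 2.1 was no smaller than the 1.73 found here.

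Cytotoxic lymphocyte and NK markers divided. Of 21 tested, 15 were positive, 10 (47.6%) lay above all controls and 1 (4.76%) below, against 14.7% and 14.8% of all genes. Cst7, a cathepsin inhibitor of cytotoxic cells (gene ID 13011, chromosome 2, 150570415 to 150578944), had controls close together, with 1.2, 1.13 and 1.2 CPM against 2.49, 3.72 and 2.59 CPM. Its log2 difference was 1.32 ± 0.21 (SE, edgeR adjusted p = 0.0729) and the knockout value -0.49. Nkg7, a granule membrane protein, had 1.97, 1.32 and 3.53 CPM against 6.52, 7.24 and 4.81 CPM, and granzyme B (Gzmb) had 26.7, 34.7 and 41.4 CPM against 51.1, 57.4 and 54.2 CPM. Perforin (Prf1) overlapped, at 13.3, 13.5 and 10.8 CPM against 9.62, 17.3 and 13.3 CPM, with a log2 difference of 0.10 ± 0.43 (SE). It turned to -0.13 without inhibitor replicate 2.

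Macrophage markers had 15 of 18 members positive and 7 (38.9%) above all controls, against 14.7% of all genes, at a median of 0.28 (knockout tumours -0.21). Arg1, an arginine-degrading enzyme of suppressive macrophages, had 99.2, 75.4 and 84.1 CPM against 360, 147 and 233 CPM (log2 difference 1.52 ± 0.46 SE, edgeR adjusted p = 0.0742). The complement genes C1qa and C1qc separated the groups too, C1qa with 284, 285 and 363 CPM against 689, 433 and 416 CPM. General macrophage genes did not: Csf1r, the receptor that sustains these cells, had 149, 161 and 206 CPM against 180, 184 and 202 CPM, and Adgre1, which encodes F4/80, had 45.3, 58 and 74.6 CPM against 42.2, 65.6 and 75.4 CPM.

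**Figure D2:**
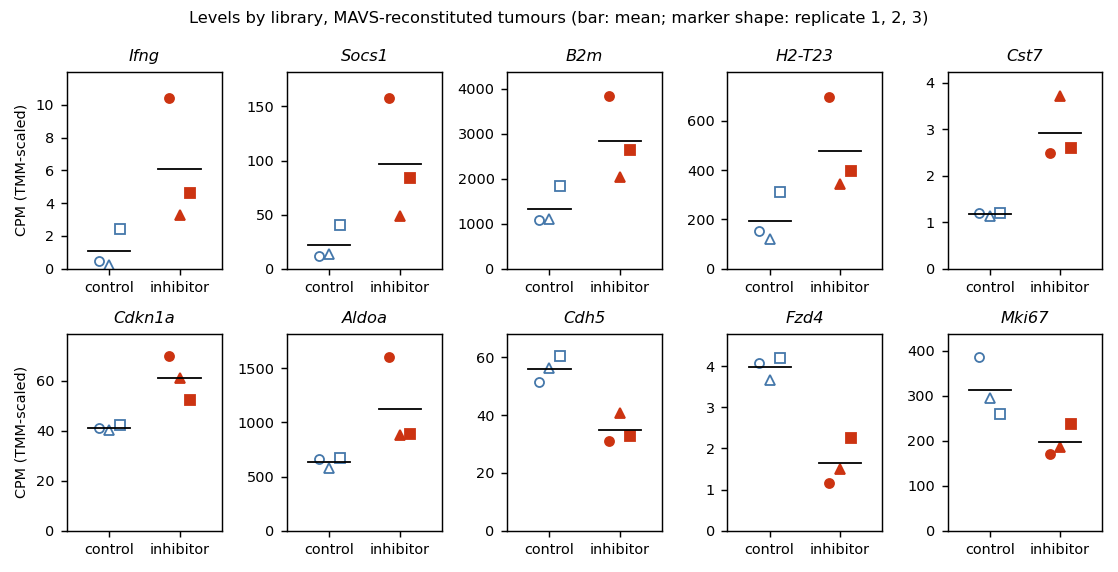
CPM of 10 genes in each reconstituted library (open: control, filled: inhibitor, bar: group mean, y axes from 0). Inhibitor replicate 1 is the highest library for Ifng, Socs1, B2m and H2-T23, and the control libraries are close together for Cst7, Cdkn1a and Fzd4.

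Genes of the spindle checkpoint and of cell division had small medians, and their counts on each side depended on single libraries. Of 21 checkpoint and kinetochore genes, 9 were positive, 3 (14.3%) lay above all controls and 6 (28.6%) below, against 14.7% and 14.8% of all genes, at a median of -0.14 (knockout tumours 0.16). Without inhibitor replicate 3 there were 9 above and 9 below (27.5% and 28.1% of all genes). Knl1, the scaffold on which MPS1 builds the checkpoint signal, had 49.2, 36.8 and 39.4 CPM against 24.1, 26.9 and 36.6 CPM. Its log2 difference of -0.52 was -0.20 with a term for transcript length, and the groups then overlapped. Bub1, the checkpoint kinase recruited by it, overlapped (56, 40.4 and 38.9 CPM against 36.2, 34.5 and 39.8 CPM). Of 36 mitosis and G2/M genes 11 were positive, 1 (2.78%) lay above and 8 (22.2%) below all controls, at a median of -0.09 that was 0 without control replicate 1, the library with the highest level of this list (0.21). Without that library 7 lay above and 8 below (17.1% and 18.3% of all genes), and without inhibitor replicate 3 there were 4 and 16. Of 32 genes of S phase and replication 1 lay above and 5 below, against 12 and 5 without inhibitor replicate 3 and 1 and 12 without inhibitor replicate 2 (19.1% of all genes on each side). Cyclin B1 (Ccnb1) had 91.9, 63.8 and 72.4 CPM against 77.8, 66.1 and 73.7 CPM. The proliferation marker Mki67 had 387, 296 and 260 CPM against 170, 186 and 237 CPM, a log2 difference of -0.67 ± 0.16 (SE, edgeR adjusted p = 0.0729) that was -0.27 once transcript length was taken into account, as described below. Mki67 transcripts are long (10061 nt).

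Known p53 targets had members on both sides: 14 of 31 were positive, 6 (19.4%) lay above and 5 (16.1%) below all controls, near the 14.7% and 14.8% of all genes, and the median was -0.03. Cdkn1a, the cell cycle inhibitor p21 (gene ID 12575, chromosome 17, 29090979 to 29100722), had 41.3, 40.3 and 42.4 CPM against 70.2, 61 and 52.3 CPM, a log2 difference of 0.57 ± 0.16 (SE, edgeR adjusted p = 0.0729) and of -0.17 in knockout tumours. Bax, a pore-forming death effector, had 41.7, 44.6 and 46.1 CPM against 75.1, 70.5 and 53.5 CPM. Mdm2, the ubiquitin ligase that limits p53, had 54.8, 51.9 and 51.4 CPM against 55.3, 46.8 and 53.1 CPM and did not separate.

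Genes of hypoxia and glycolysis had 26 of 30 members positive and 14 (46.7%) above all controls, against 14.7% of all genes. The median was 0.34 (knockout tumours -0.15), and 0.18 without inhibitor replicate 1. Library means were 0.08, -0.13 and 0.05 in controls and 0.62, 0.17 and 0.28 under the inhibitor, so all 3 inhibitor libraries were above all controls. Aldolase A (Aldoa) had 659, 579 and 669 CPM against 1600, 882 and 894 CPM, and the glucose transporter gene Slc2a1 had 91.5, 94.3 and 94.4 CPM against 167, 120 and 132 CPM (log2 difference 0.58 ± 0.16 SE, edgeR adjusted p = 0.0729). Bnip3, a mitophagy receptor induced by hypoxia, had 33, 33 and 41.7 CPM against 122, 47.2 and 62.2 CPM. Other hypoxia genes overlapped, among them carbonic anhydrase 9 (Car9, 1, 0.549 and 0.671 CPM against 1.52, 0.812 and 0.723 CPM) and Adm (7.08, 3.04 and 6.38 CPM against 2.57, 6.1 and 4.14 CPM).

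The stress response list had 24 of 33 members positive, at a median of 0.17 (knockout tumours 0). Of the 33, 12 (36.4%) lay above and 2 (6.06%) below all controls, against 14.7% and 14.8% of all genes. Integrated stress response genes had 11 of 13 positive and 6 above all controls. Unfolded protein response genes had 10 of 12 positive and 5 above, and heat shock genes 3 of 8 positive and 1 above. Trib3, a pseudokinase induced by ATF4 and CHOP, had 13, 11.1 and 22.1 CPM against 61.6, 25.6 and 29.4 CPM (log2 difference 1.34 ± 0.32 SE, edgeR adjusted p = 0.0729). Ddit3, which encodes CHOP, had 10.1, 9.58 and 11.9 CPM against 22.3, 16.4 and 14.3 CPM, and Atf4 had 131, 133 and 144 CPM against 241, 198 and 154 CPM. In all 3 genes replicate 1 was the highest. With a term for transcript length Ddit3 stood at 0.28 in place of 0.75 and Atf4 at 0.32 in place of 0.54, and both still separated the groups. The endoplasmic reticulum chaperone gene Hspa5 did not separate, with 617, 581 and 689 CPM against 696, 625 and 657 CPM.

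Endothelial markers included genes that lay evenly on the lower side, with 3 of 14 positive and 4 (28.6%) below all controls, against 14.8% of all genes. Without control replicate 1 there were 7 (18.3% of all genes), and with a term for transcript length 2. The median of -0.18 was -0.06 without control replicate 3. VE-cadherin (Cdh5, gene ID 12562, chromosome 8, 104101613 to 104144504), the adhesion molecule of vessel walls, had 51.4, 56.4 and 60.5 CPM against 31.2, 40.9 and 32.9 CPM, a log2 difference of -0.68 ± 0.10 (SE, edgeR adjusted p = 0.0729) against -0.10 in knockout tumours. The angiopoietin receptor gene Tek had 10.1, 7.4 and 12.3 CPM against 4.64, 6.22 and 4.44 CPM, and the VEGF receptor gene Kdr had 23.1, 27.1 and 25 CPM against 15, 21.8 and 13.6 CPM. Other defining markers of the same cells overlapped: Pecam1 had 58.4, 67.8 and 85.6 CPM against 68.2, 83 and 60.4 CPM, and Eng had 39.1, 39.6 and 47.2 CPM against 40.5, 44.7 and 36.6 CPM. The summed level of the 14 markers was 430 to 533 CPM in controls and 377 to 464 CPM under the inhibitor.

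The 10 genes with the smallest p on each side, among genes averaging 1 or more in log2 CPM and without overlap, shared the adjusted p of 0.0729. On the higher side these were AI413582, Moap1, Cacfd1, Amdhd2, Prss22, Upp1, Capg, Trappc6a, Naa38 and Sigirr. Upp1, a uridine phosphorylase, had 37.2, 31.7 and 42.4 CPM against 85.8, 52.6 and 80.9 CPM, and Moap1, a Bax-binding protein, had 2.13, 2.19 and 1.65 CPM against 4.31, 4.72 and 4.71 CPM. Inhibitor libraries agreed closely for Moap1. On the lower side were Cdh5, Pcdh17, Rtn1, Ntrk2, Tmem64, Slc25a32, Scai, Nhsl2, Fzd4 and Asph. With a term for transcript length Asph stood at -0.04 in place of -0.34 and overlapped, Nhsl2 at -0.31 and Scai at -0.38 in place of -0.78 each, and Naa38 at 0.19 and Trappc6a at 0.22 in place of 0.73 each. AI413582 stood at 0.59 in place of 1.01 and Capg at 0.29 in place of 0.58, while Cacfd1 was nearly unchanged (0.32 in place of 0.36). The neurotrophin receptor gene Ntrk2 had 3.62, 4.68 and 2.43 CPM against 1.03, 1.33 and 1.55 CPM (log2 difference -1.46 ± 0.25 SE), and the Wnt receptor gene Fzd4 had 4.07, 3.66 and 4.2 CPM against 1.17, 1.51 and 2.25 CPM (-1.27 ± 0.25 SE). Fibronectin (Fn1), a matrix glycoprotein read at over 1500 CPM in every library, had 3780, 3330 and 2700 CPM against 1560, 1850 and 2170 CPM, a log2 difference of -0.81 ± 0.18 (SE, edgeR adjusted p = 0.0729). The length term made the Fn1 difference -0.47, and the groups still separated.

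For several of these genes the knockout tumours gave the opposite sign. In the interaction, among genes averaging 1 or more in log2 CPM, the smallest p on the higher side belonged to Prss22, Ier3, Dusp2, Pim1 and Tmem51 and on the lower side to Ntrk2, Rtn1, Fzd4, Syde2 and Suv39h2, all at an edgeR adjusted p of 0.144. Cst7, below that level limit, had an interaction of 1.81 at the same adjusted p. Ier3, an immediate early survival gene, had log2 differences of 0.89 here and -0.69 in knockout tumours. Its controls already differed, at 45.7, 44.6 and 43.9 CPM here and 166, 167 and 108 CPM in knockout tumours. Inhibitor libraries had 99.5, 84.6 and 65 CPM here and 69, 110 and 93.3 CPM there. The phosphatase gene Dusp2 had 0.90 and -0.65 (knockout 3.41, 2.66 and 4.03 CPM against 2.18, 2.22 and 2.03 CPM). Ntrk2 had -1.46 and 0.76 (knockout 2.25, 1.79 and 1.86 CPM against 3.26, 3.55 and 3.2 CPM). Fzd4 had -1.27 and 0.52 (knockout 3.12, 2.78 and 3.21 CPM against 5.46, 4.2 and 3.41 CPM). None of these differences between genotypes passed the test. For the interferon lists no member passed it either: Socs1 had an interaction of 2.23 (edgeR adjusted p = 0.145), B2m of 1.06 (adjusted p = 0.198) and Cxcl10 of 1.92 (adjusted p = 0.283).

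**Figure D3:**
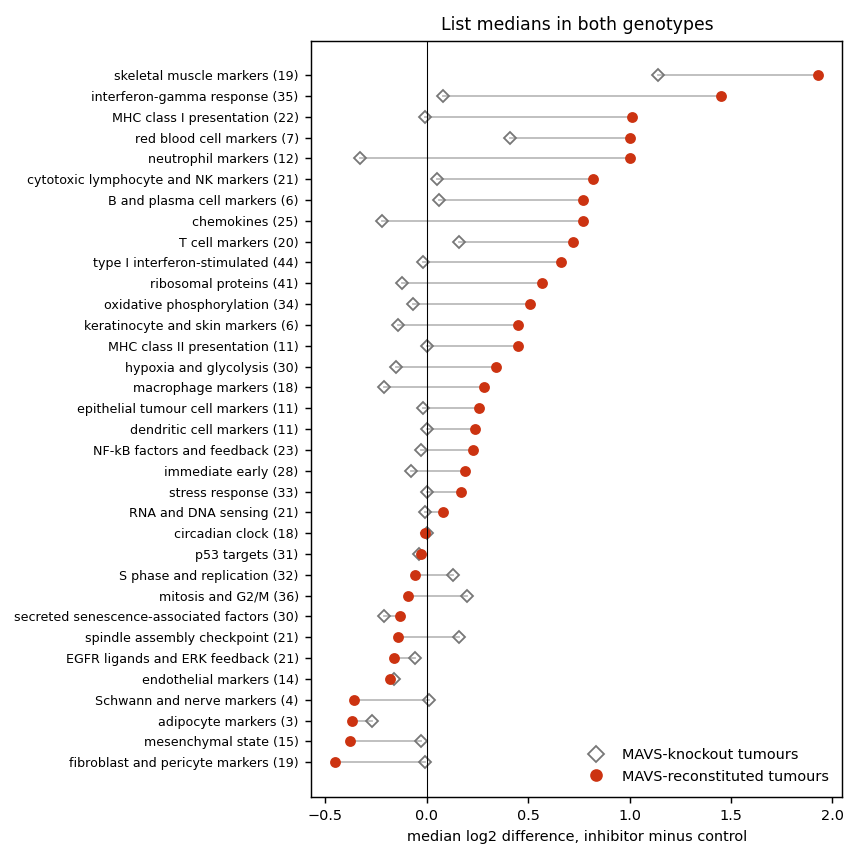
Median log2 difference, inhibitor minus control, of 34 gene lists in reconstituted (filled circles) and knockout tumours (open diamonds), with the number of tested members in brackets. The interferon-gamma response stands at 1.45 against 0.08 and MHC class I presentation at 1.01 against -0.01; skeletal muscle markers are the highest list in both genotypes, at 1.93 and 1.14.

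Inhibitor replicates 1 and 3 differed most in muscle genes, higher in replicate 1, and in a mixed set with several matrix genes, higher in replicate 3. Skeletal muscle markers summed to 3230 CPM in inhibitor replicate 1, 524 CPM in replicate 2 and 107 CPM in replicate 3, and to 923, 4.73 and 292 CPM in control replicates 1, 2 and 3. The creatine kinase gene Ckm, for example, had 277, 26.5 and 4.02 CPM under the inhibitor and 59.9, 0.169 and 12.5 CPM in controls. Both groups thus held libraries with and without much muscle RNA. All 10 genes highest in replicate 1 against replicate 3, among genes averaging 3 or more in log2 CPM, are muscle genes: Ckm, Atp2a1, Tnnc2, Tnnt3, Tnni2, Mylpf, Acta1, Des, Car3 and Ttn. Of the 19 muscle markers tested, 0 lay apart between the groups on either side.

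In the mixed set of matrix and other genes, inhibitor replicate 1 was the lowest of all 6 libraries. Tnn, the matrix protein tenascin N, had 1.26 CPM in inhibitor replicate 1 but 49.7 and 73.5 CPM in replicates 2 and 3 and 52.3, 85.7 and 66.3 CPM in controls. Col12a1, a fibril-associated collagen chain, had 54 CPM there against 471 and 565 CPM in its group and 565, 729 and 623 CPM in controls. The retinoic acid binding protein gene Crabp1 had 13.2 CPM against 276 and 220 CPM in its group. The 10 genes highest in replicate 3 against replicate 1 were these 3 with Col23a1, Masp1, Sema5a, Crispld2, Cyp26b1, Col7a1 and Cacna1g. Markers of fibroblasts and pericytes summed to 3860 CPM in inhibitor replicate 1, to 11500 and 9870 CPM in replicates 2 and 3 and to 11800 to 12200 CPM in controls. Of 19 markers 1 was positive and 4 (21.1%) lay below all controls, against 14.8% of all genes. Without inhibitor replicate 2 there were 10 below (19.1% of all genes), and with a term for transcript length 1. The median of -0.45 was -0.72 without inhibitor replicate 2 and -0.24 without replicate 1. The part of muscle and fibroblast RNA in the other differences was not tested.

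**Figure D4:**
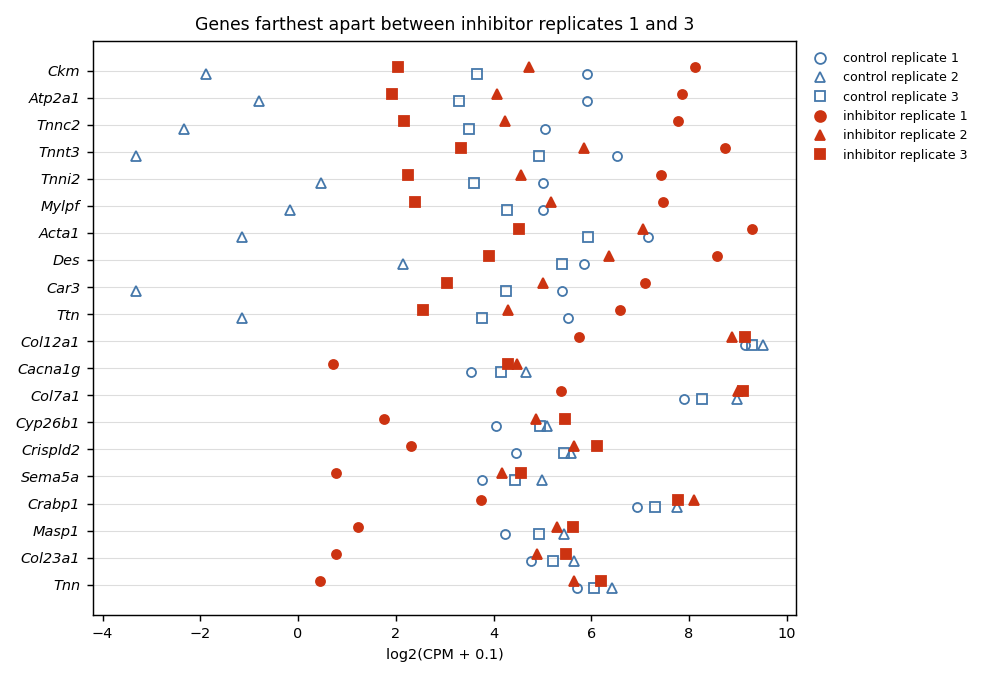
Levels of the 20 genes farthest apart between inhibitor replicates 1 and 3, as log2(CPM + 0.1) on the x axis, in the 6 reconstituted libraries (open: control, filled: inhibitor). Muscle genes (top 10) are highest in inhibitor replicate 1, while matrix and other genes (bottom 10) are lowest in that library, such as Tnn at 1.26 CPM.

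The log2 differences varied with transcript length. Among 14756 genes with a length (82.5% of those tested), divided into 5 equal bins, the bin of the shortest transcripts (64 to 1735 nt) had a median log2 difference of 0.37, and 34% of them lay above all controls against 2.5% below. The bin of the longest (5051 to 123179 nt) had -0.31, with 1.52% above and 34.6% below. In knockout tumours the same medians were -0.07 and 0.04. Relative to the mean of all 12 libraries, the shortest bin stood at -0.23, -0.19 and -0.11 in controls and at 0.39, 0.22 and -0.08 in inhibitor replicates 1, 2 and 3. The longest bin stood at 0.20, 0.14 and 0.12 in controls and at -0.33, -0.22 and 0.08 in inhibitor replicates 1, 2 and 3. Controls and inhibitor replicates 1 and 2 thus sloped in opposite directions, and inhibitor replicate 3 sloped like the controls.

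**Figure D5:**
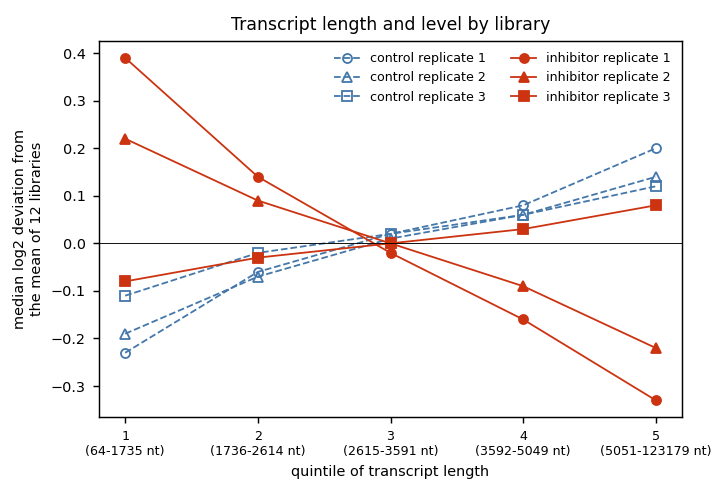
Median log2 deviation from the mean of 12 libraries (y axis) in 5 bins of transcript length (x axis) for the 6 reconstituted libraries (dashed, open: control; solid, filled: inhibitor). Inhibitor replicates 1 and 2 slope from 0.39 and 0.22 down to -0.33 and -0.22, while replicate 3 runs from -0.08 to 0.08 like the controls.

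Ribosomal protein genes, which have short transcripts, were positive throughout. All 41 were positive, 28 (68.3%) lay above all controls, against 14.7% of all genes, and the median was 0.57 (knockout tumours -0.12). Without inhibitor replicate 3 edgeR called all 41 of them higher, and 15.8% of all genes. Summed levels were 22700, 23200 and 24900 CPM in controls and 41800, 33700 and 25600 CPM in inhibitor replicates 1, 2 and 3. Rplp1, a ribosomal stalk protein, had 343, 378 and 443 CPM against 957, 806 and 476 CPM. Nuclear-encoded subunits of oxidative phosphorylation had 32 of 34 positive and 22 (64.7%) above all controls, at a median of 0.51. A term for transcript length, chosen after seeing the data, was estimated from the trend of each of these libraries with length. It brought the bin medians to between -0.02 and 0.02, so a list following the trend moved towards 0 whatever its cause. The cause of the trend was not tested. With this term in the fit, the medians of both lists were 0.08. Rplp1 then had a log2 difference of 0.29 in place of 0.94 and overlapped.

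With the same term the immune lists differed in how much of their median remained. It left a median of 1.30 for the interferon-gamma response, 0.69 for type I interferon-stimulated genes, 0.79 for MHC class I and 0.30 for hypoxia and glycolysis. Over the same members, the median was 0.40 in place of 0.82 for cytotoxic and NK markers, 0.20 in place of 0.45 for MHC class II and 0.49 in place of 0.69 for 24 chemokines. For the 17 T cell markers with a length it was 0.65 in place of 0.61, but only 2 of the 17 lay above all controls. Macrophage markers kept a median near 0.28 (0.29), but 2 of 18 in place of 7 lay above all controls. Counts of members above all controls were smaller, at 5 of 34, 3 of 43 and 3 of 22 for the first 3 lists. For hypoxia and glycolysis the count was 13 of 30. Of all genes 11.6% lay above and 11.5% below, so the first 3 lists were near or below that share. B2m (0.62), H2-T23 (1.02), Ifitm3 (0.58) and Gzmb (0.40) then overlapped, while Socs1 (2.14), Ifng (2.17), Cst7 (0.91), Slc2a1 (0.62), Cdkn1a (0.43), Cdh5 (-0.56) and Fzd4 (-1.01) still separated the groups. With this term edgeR called 0 genes (smallest adjusted p = 0.105), with 3673 (24.9%) at an unadjusted p below 0.05.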

How the data were processed

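RNA-seq of 12 tumour libraries was used as the table of raw counts that the authors deposited, whole numbers per gene. Per the submitters' processing notes, Trimmomatic, HISAT2 and StringTie and the build GRCm38 (mm10) were named without versions or roles, and the use of strand in counting is not stated in them. Libraries held 52983715 to 69108411 counts. Of 45777 genes, 27547 had a count and 17885 passed edgeR's low-count filter.

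All 12 libraries were fitted together with edgeR 4.0.16 (R 4.3.3): TMM scaling, a mean per group, the quasi-likelihood test and Benjamini-Hochberg adjustment over all genes, with a threshold of 0.05. CPM values use the TMM factors. With 3 against 3 libraries an exact permutation test of a single value cannot go below p = 0.1, so none is given. Limits of 3 counts cover counting error only. The edgeR test alone was checked first on simulated counts with 200 changed genes and no library made to deviate as a whole. For the inhibitor effect it called 64 of 100 changes of 1 log2 unit and 97 of 100 of 2, with 10 false calls. For the interaction it called 34 and 85, with 14 false calls. DESeq2 1.42.0, limma 3.58.1 with sample quality weights, other scalings and filters, a replicate block and leaving out each library were the alternatives. A transcript length offset (with and without GC), and counts of members apart with 1 library left out, were added after seeing the data, as was the search for TTCNNNGAA.

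The comparison, the 34 gene lists (730 genes) and the rules were chosen with earlier results of these data known. Named genes were a set list, the smallest p per list (up to 4) and per direction (10, averaging 1 or more in log2 CPM, with no overlap and no Gm-number, Rik or LOC symbol), the 5 smallest interaction p per direction under the same limits on level and symbol, and the 10 genes farthest apart each way between inhibitor replicates 1 and 3 (averaging 3 or more in log2 CPM). Tap1, Tap2, Nlrc5, Ido1, Irf1, Cxcl9, Ciita, Psmb9, Zbp1, Csf1r, Adgre1, Bub1, Ccnb1, Mdm2, Slc2a1, Bnip3, Car9, Adm, Hspa5, Pecam1 and Eng fall outside this rule and were named after their values were seen.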

Additional observations from a re-analysis of the deposited data

How the results depend on the processing

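Calls depended on the tool and on inhibitor replicate 3. Against 0 in reconstituted tumours, 0 in knockout tumours and 0 for their difference, DESeq2 called 3621, 3 and 1345 genes and limma-voom with sample quality weights 5812, 1 and 3405. That tool gave reconstituted inhibitor replicates 1 and 3 the lowest weights, 0.36 and 0.28. Fitting only the 6 reconstituted libraries gave 1 call. Leaving out 1 library gave 0 to 5683 calls in reconstituted tumours, 0 to 0 in knockout tumours and 0 to 4005 for the difference, the highest both times without reconstituted inhibitor replicate 3. DESeq2 size factors, library totals, no filter, a mean of at least 1 CPM, robust dispersion and the length offsets gave 0 each in all 3 comparisons. The length offsets were not fitted without reconstituted inhibitor replicate 3. The cause of the dependence on tool and library was not tested.

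Replicate numbers gave no clear pairing of the samples. Same-numbered control and inhibitor libraries of reconstituted tumours had correlations of deviations of 0.3, 0.1 and -0.1. Control 1 correlated best with inhibitor 1 (0.3) and control 2 with inhibitor 3 (0.34). With 3 libraries per group these values cannot exclude a pairing. The fit with a replicate block gave 0 calls in each comparison.

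Of 140 named genes, 134 kept their sign in each of the 24 settings in which they were tested. Most of the 140 were named for a small p in these same data. List members at an unadjusted edgeR p of 0.05 or more were left out, as were genes named only for the spread between inhibitor replicates 1 and 3. Stable signs were thus favoured by the choice of genes and are no separate support. Clock turned from -0.4 to 0.02 with the length and GC offset. Cox8a turned from 0.59 to -0.03 (length offset, also with the block) and -0.09 (length and GC), and Flt1 from -0.28 to 0.03 in all 3. Ifih1 turned from 0.01 to -0.05 with library totals, and ranged from -0.18 to 0.23 with 1 library left out. Ddx58 ranged from -0.07 to 0.24 and Prf1 from -0.13 to 0.29 in the same way, and Prf1 was -0.01 with the length and GC offset. Low lymphocyte counts limit markers such as Cd8a.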

Other observations

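MHC class II presentation genes had 9 of 11 members positive and 6 (54.5%) above all controls, where 14.7% of all genes were, at a median of 0.45 (knockout tumours 0). With a term for transcript length the median was 0.2 and 2 lay above. The library means of the inhibitor group, 0.35, 0.3 and 0.44, were nearly equal and matched control replicate 3 at 0.45. NF-kB factors and feedback genes had 19 of 23 positive and 7 above all controls, at a median of 0.23, and 11 without inhibitor replicate 2 (19.1% of all genes). Immediate early genes had 22 of 28 positive and 7 above all controls, at a median of 0.19, and 11 without inhibitor replicate 3 (27.5% of all genes).

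Neutrophil markers had 10 of 12 tested members positive at a median of 1, against -0.33 in knockout tumours, and 2 (16.7%) lay above all controls, near the 14.7% of all genes. The median was 0.42 with a term for transcript length and 0.55 without inhibitor replicate 2. S100a8, a calcium-binding protein of these cells, had a log2 difference of 1.65 that ranged from 1.09 to 1.98 with 1 library left out. B and plasma cell markers were low, with 6 of 11 tested and 0 apart. Their summed level was 5.16 to 11.9 CPM in controls and 8.42 to 13.4 CPM under the inhibitor. Ighm, an immunoglobulin gene, had 4.42 to 11.1 CPM in the 6 libraries, while Cd79b was near the limit of detection (0 to 0.277 CPM). The list median was 0.77 (knockout tumours 0.06). Without control replicate 3 it was 1.56, with 4 of 6 above the controls and 1 below (23.6% and 22.7% of all genes).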
